A study of Mus musculus with 6 samples.

Results

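The 9 genes described here are P450 enzymes and carboxylesterases that handle foreign compounds, with the receptors that control them: Cyp2s1, Cyp2b10, Cyp3a11, Cyp3a13, Cyp3a25, Ces1f, Ces2e, Nr1i2 and Nr1i3. They are 9 of the 23565 genes in the count table and were taken by symbol. They were chosen by their CPM levels in these same libraries, so the differences between groups reported for them are a description and carry no test. RNA was sequenced in bulk from sorted crypt cells of the mouse small intestine. The Hopx-CreER group holds 3 libraries of tdTomato-positive cells from HopXCreER::Rosa26LSL-tdTomato mice, in which a tamoxifen-inducible Cre at Hopx, a gene used to mark reserve stem cells, switches on the red reporter. The Lgr5-CreER group holds 3 libraries of cells positive for both eGFP and tdTomato from Lgr5eGFP-IRES-CreER::Rosa26LSL-tdTomato mice, in which the same reporter is switched on in cells that express Lgr5, the marker of crypt base stem cells. Both groups received 1 mg of tamoxifen 16 hours before crypts were taken, and 3 mice of each genotype are described. Genotype and sorting gate differ together and cannot be told apart. The mouse behind each library and the animals' age are not given in the labels.

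Intestinal epithelium is, with the liver, a main site where drugs and dietary chemicals are oxidised and hydrolysed. P450 enzymes are haem proteins of the endoplasmic reticulum that insert oxygen into their substrates, and carboxylesterases cut ester and amide bonds. Nr1i2 encodes the pregnane X receptor (PXR) and Nr1i3 the constitutive androstane receptor (CAR), nuclear receptors that pair with the retinoid X receptor, bind paired AGGTCA-like sites, and raise transcription of Cyp3a and Cyp2b genes when foreign compounds or bile acids are present.

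Depth was 10839306 to 14570555 counts a library, and 3 counts correspond to 0.201 to 0.278 CPM, the count scaled by library size and TMM factors for library composition. Of 12439 genes that passed a filter on low counts, 9.45% were called higher and 3.3% lower in Hopx-CreER cells (edgeR quasi-likelihood test, adjusted p under 0.05). Those calls were 1176 and 410 genes, against 938 and 729 with library totals alone, which moved the median log2 fold change by -0.114, and 1044 and 1037 with offsets for GC content. They fell to 606 and 117 without Lgr5-CreER library 2, 722 and 160 without library 3, 744 and 200 without library 1, and 659 and 131 with the like-numbered columns summed; without Hopx-CreER library 2 they were 909 and 218. Hopx-CreER library 3, whose column name carries an extra tag, stood apart: 181 genes were at least 4-fold below both other Hopx-CreER libraries in it, against 20 and 48 for libraries 1 and 2. The same number stands in the column names of libraries 2 and 3 of the Lgr5-CreER group, which may therefore not be separate animals. Summed CPM of 7 epithelial markers was 15529 to 17038 in Hopx-CreER and 10329 to 11096 in Lgr5-CreER libraries. Of these, Krt8, Krt18, Krt19 and Vil1 had all Hopx-CreER libraries above all Lgr5-CreER libraries, while Epcam, Cdh1 and Cdx2 overlapped. Krt8 averaged 6471 CPM in Hopx-CreER against 3228 CPM in Lgr5-CreER libraries, and Epcam 2207 against 2251 CPM. Over all libraries 10 immune markers summed to 1.81 to 7.79 CPM, 3 endothelial to 0 to 4.65 and 4 mesenchymal to 0 to 0.605. Because the libraries are bulk RNA, fewer cells of a type and less RNA per cell cannot be told apart.

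Levels of all 9 members were higher on average in Hopx-CreER than in Lgr5-CreER cells, and for 8 of them the 3 Hopx-CreER libraries lay above all 3 Lgr5-CreER libraries; among all tested genes that order held for 18.8%. All 9 passed the filter on low counts. The members fell into 3 patterns. Cyp2s1, Cyp3a13, Ces1f and Ces2e were high in every Hopx-CreER library, Cyp2b10, Cyp3a11 and Cyp3a25 owed most of their Hopx-CreER mean to library 3, and the receptors Nr1i2 and Nr1i3 differed from each other. The median log2 ratio of group means over the 9 was 2.15, and 1.72 with Hopx-CreER library 3 left out, beside a median log2 fold change of -0.033 over all tested genes.

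**Figure D1:**
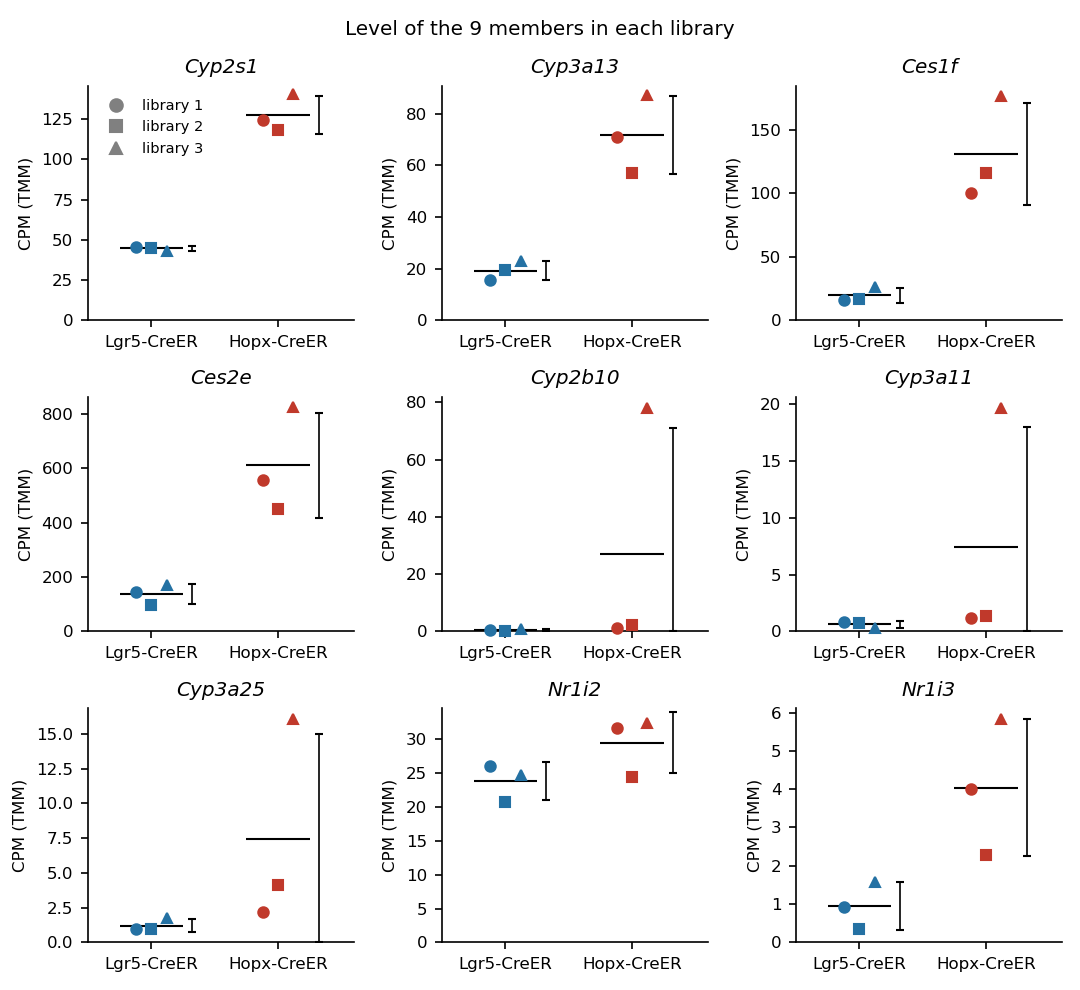
TMM-scaled CPM (vertical axes, linear from 0) of each member in the 3 Lgr5-CreER and 3 Hopx-CreER libraries; each symbol is a library, horizontal lines are group means and bars are 1 SD, cut at 0. Cyp2s1, Cyp3a13, Ces1f and Ces2e separate the groups in every library, whereas Cyp2b10, Cyp3a11 and Cyp3a25 are high in Hopx-CreER library 3.

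Cyp2s1, a P450 found mainly outside the liver in epithelia, was the steadiest member that parted the groups. It stood at 124, 118 and 141 CPM in Hopx-CreER libraries 1, 2 and 3 and at 45.8, 45.1 and 43.0 CPM in the Lgr5-CreER libraries. The means were 128 ± 11.7 and 44.6 ± 1.47 CPM (SD, n = 3), a ratio of 2.86 that became 2.71 without Hopx-CreER library 3. No Hopx-CreER library came near the Lgr5-CreER range.

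Cyp3a13, a Cyp3a enzyme present in intestine as well as liver, showed 71.0, 56.9 and 87.2 CPM in Hopx-CreER libraries against 15.5, 19.4 and 23.0 CPM in Lgr5-CreER libraries. Its means were 71.7 ± 15.2 and 19.3 ± 3.76 CPM (SD, n = 3), a ratio of 3.72. The lowest Hopx-CreER library thus held more than the highest Lgr5-CreER library by a wide margin, and the ratio was 3.31 without library 3.

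Both carboxylesterases were higher still in relative terms. Ces1f, of the carboxylesterase 1 group, stood at 100.04, 116 and 176 CPM in Hopx-CreER libraries and at 15.9, 16.8 and 26.2 CPM in Lgr5-CreER libraries. Its means of 131 ± 40.2 and 19.6 ± 5.74 CPM (SD, n = 3) gave a ratio of 6.67, and 5.51 without Hopx-CreER library 3. Ces2e, of the carboxylesterase 2 group that predominates in gut, was the most abundant member in both groups. It reached 555, 450.1 and 825 CPM in Hopx-CreER libraries against 145, 98.4 and 170.1 CPM in Lgr5-CreER libraries. The Ces2e means were 610.2 ± 194 and 138 ± 36.4 CPM (SD, n = 3), a ratio of 4.43 that fell to 3.65 without library 3. Neither esterase overlapped between groups, and both were highest in Hopx-CreER library 3.

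Cyp2b10, Cyp3a11 and Cyp3a25 stayed under 5 CPM in 5 of the 6 libraries and were higher in Hopx-CreER library 3. The bases before their start sites are printed because these genes shared a high value in that library. Cyp3a13 is set beside them as the Cyp3a gene that was steadier among the Hopx-CreER libraries. Sequences are from RefSeq (GRCm38.p6), 5′ to 3′ on the gene's strand, and stop where either the RefSeq or the GENCODE gene begins. Capitals mark matches on either strand to AGNTCA, a form that includes AGGTCA and AGTTCA.
Cyp2b10, chr7:25897408-25897619, plus strand: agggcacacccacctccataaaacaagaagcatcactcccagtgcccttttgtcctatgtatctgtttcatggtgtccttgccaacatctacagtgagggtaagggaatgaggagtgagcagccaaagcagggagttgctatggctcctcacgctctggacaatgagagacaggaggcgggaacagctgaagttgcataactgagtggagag
Cyp3a11, chr5:145879965-145880104, minus strand: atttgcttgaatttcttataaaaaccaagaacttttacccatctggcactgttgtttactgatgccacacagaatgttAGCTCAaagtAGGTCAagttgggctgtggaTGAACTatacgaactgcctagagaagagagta
Cyp3a25, chr5:146009619-146009868, minus strand: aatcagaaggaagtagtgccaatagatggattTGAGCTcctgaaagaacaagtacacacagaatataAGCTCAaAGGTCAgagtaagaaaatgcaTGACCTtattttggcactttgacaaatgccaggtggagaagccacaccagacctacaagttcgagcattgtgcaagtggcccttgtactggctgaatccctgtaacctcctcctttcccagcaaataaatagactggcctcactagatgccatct
Cyp3a13, chr5:137921620-137921869, minus strand: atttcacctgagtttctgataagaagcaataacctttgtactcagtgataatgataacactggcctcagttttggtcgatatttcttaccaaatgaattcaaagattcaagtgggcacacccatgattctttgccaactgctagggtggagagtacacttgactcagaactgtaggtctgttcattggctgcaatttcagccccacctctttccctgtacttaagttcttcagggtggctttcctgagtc

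Promoter entries matched 8 of the 9 members, of which that of Cyp2s1 lies within its GENCODE gene. In the 250 bases before the RefSeq start, AGNTCA had 3 matches in Cyp3a11, 4 in Cyp3a25, 1 in Nr1i3 and none in Cyp2b10, Cyp3a13, Cyp2s1, Ces2e or Nr1i2; 41.3% of the 32817 promoter windows of that length hold at least 1. AGGTCA itself, counted within those matches, was in Cyp3a11 and Cyp3a25 and in 14% of windows, and AGTTCA in Cyp3a11 and in 11.9%. A direct repeat of AGNTCA with 4 bases between, searched on both strands, was in the Cyp3a11 window and in 0.104% of all windows. A direct repeat with 3 bases between, and an everted repeat (TGANCT, then AGNTCA) with 6, were in none of the 8 member windows and in 0.0518% and 0.0305% of all windows. These are letter matches near the start only, and neither other spacings nor more distant sequence was searched. In Cyp3a25, the AGNTCA matches at 183 to 178 and 176 to 171 bases before the start lie on the same strand with 1 base between. The share of all windows with that spacing was not counted.

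Cyp2b10, the classic target of CAR, had 16, 25 and 840 counts in Hopx-CreER libraries 1, 2 and 3 and 7, 0 and 10 counts in the Lgr5-CreER libraries. As CPM these are 1.21, 2.11 and 77.9 against 0.469, 0 and 0.688. Library 3 was 36.9-fold above the higher of the other Hopx-CreER libraries, the greatest such value of any tested gene. The group means of 27.1 ± 44.0 and 0.386 ± 0.352 CPM (SD, n = 3) give a ratio of 70.2, and the ratio is 4.3 without library 3. No Hopx-CreER library lay near its group's mean.

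Cyp3a11, the main Cyp3a enzyme of mouse liver and gut and a target of PXR, had 16, 16 and 212 counts in Hopx-CreER libraries against 12, 9 and 4 in Lgr5-CreER libraries. That is 1.21, 1.35 and 19.7 CPM against 0.803, 0.777 and 0.275 CPM. The means were 7.41 ± 10.6 and 0.619 ± 0.298 CPM (SD, n = 3), a log2 ratio of 3.58 that became 1.05 without Hopx-CreER library 3 on the same scaling. Hopx-CreER libraries 1 and 2 lay above the Lgr5-CreER range by less than 1 CPM.

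Cyp3a25, a further Cyp3a enzyme, had 29, 49 and 173 counts in Hopx-CreER libraries against 14, 11 and 25 in Lgr5-CreER libraries, or 2.18, 4.14 and 16.0 CPM against 0.937, 0.95 and 1.72 CPM. Library 3 was 3.87-fold above library 2, and the means were 7.46 ± 7.50 and 1.20 ± 0.449 CPM (SD, n = 3), a ratio of 6.2 with library 3 and 2.63 without it. Cyp2b10 and Cyp3a11 are among the 0.233% of tested genes in which library 3 was at least 4-fold above both other Hopx-CreER libraries, and Cyp3a25 fell just short of that fold, which was set with the values in view.

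Spread among the Hopx-CreER libraries went with the patterns, which were drawn from these same values. The highest library exceeded the lowest 1.19-fold for Cyp2s1, 1.33-fold for Nr1i2, 1.53-fold for Cyp3a13, 1.76-fold for Ces1f, 1.83-fold for Ces2e and 2.56-fold for Nr1i3. For Cyp3a25, Cyp3a11 and Cyp2b10 it was 7.35-fold, 16.3-fold and 64.6-fold. Over all tested genes the median was 1.44-fold and the 90th percentile 3.02-fold, so these last 3 members lay above that percentile and the other 6 below it.

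**Figure D2:**
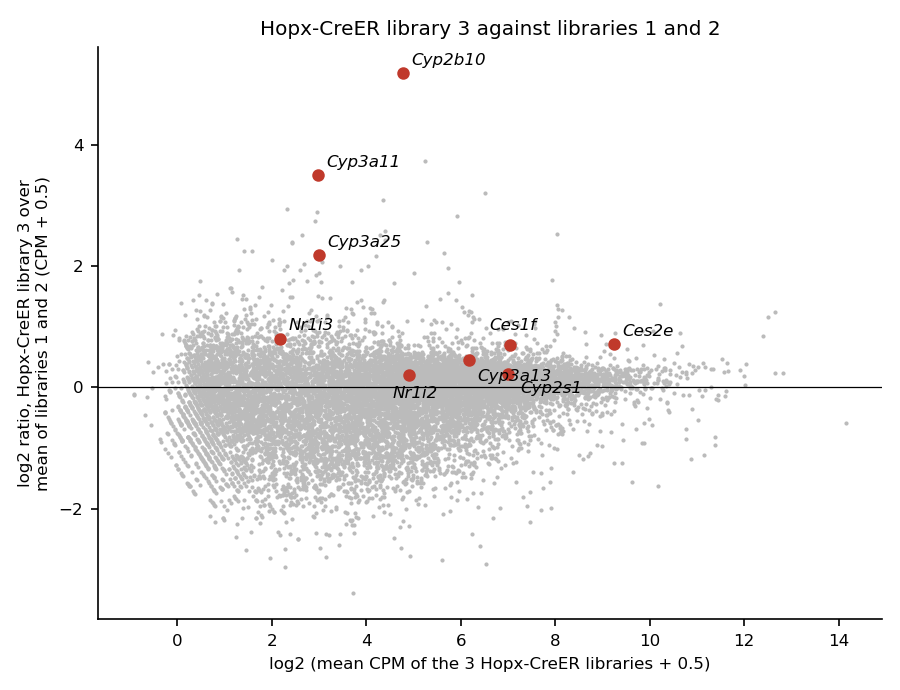
Log2 ratio of Hopx-CreER library 3 over the mean of libraries 1 and 2 (CPM plus 0.5, vertical axis) against log2 mean CPM of the Hopx-CreER libraries plus 0.5 (horizontal axis) for all 12439 tested genes, with members in red. Cyp2b10, Cyp3a11 and Cyp3a25 stand at 5.18, 3.50 and 2.18, above nearly all genes of their level, while the other 6 members lie at 0.21 to 0.80.

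Every member was highest in Hopx-CreER library 3, and mature enterocyte markers were also highest there. The 25 enterocyte markers summed to 5256, 4395 and 7974 CPM in Hopx-CreER libraries 1, 2 and 3 and to 2352 to 2888 CPM in Lgr5-CreER libraries, so that library 3 was 1.65 times the mean of the other Hopx-CreER libraries. On the same scale Ces1f and Ces2e were at 1.63 and 1.64 times, Nr1i3 at 1.86, Cyp3a13 at 1.36, Cyp2s1 and Nr1i2 at 1.16, and Cyp3a25, Cyp3a11 and Cyp2b10 at 5.07, 15.4 and 47.0 times. Single enterocyte markers ranged from 0.267 for Mgam, a brush border glucosidase, to 14.1 for Lct, which encodes lactase, with a median of 1.86 and 20 of 25 above 1. Of the 25 markers, 21 had all Hopx-CreER libraries above all Lgr5-CreER libraries. The part of enterocyte RNA in the members' differences was not tested.

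Other cell types moved with the groups too. Paneth markers (13) summed to 15844, 15075 and 32722 CPM in Hopx-CreER libraries 1, 2 and 3 and to 1678 to 3296 CPM in Lgr5-CreER libraries. For them Hopx-CreER library 3 was 2.12 times the mean of libraries 1 and 2, beside 1.65 for enterocyte markers. Goblet markers (11) summed to 7404 to 11159 CPM in Hopx-CreER against 2138 to 2868 CPM in Lgr5-CreER libraries, and enteroendocrine markers (15) to 3472 to 8968 against 218 to 379 CPM. Tuft markers (13) summed to 1397, 1129 and 319 CPM in Hopx-CreER libraries 1, 2 and 3 and to 152 to 232 CPM in Lgr5-CreER libraries, so they were lowest in the library where the P450s were highest. Markers of the Lgr5 stem cell (12) summed to 3604 to 5696 against 11630 to 12138 CPM. Proximal intestine markers (7) summed to 760.5, 670.9 and 1122 CPM in Hopx-CreER libraries and 291 to 393 CPM in Lgr5-CreER libraries. Of these 7, Fabp1, Lct, Slc2a2 and Slc40a1 had all Hopx-CreER libraries above all Lgr5-CreER libraries, while Gata4, Onecut2 and Cybrd1 overlapped. Fabp1, Lct and Slc2a2 are also on the enterocyte list and were highest in Hopx-CreER library 3. Slc40a1 was lowest there among Hopx-CreER libraries. Gata4 stood at 378, 338 and 377 CPM in Hopx-CreER libraries and 339, 242 and 309 CPM in Lgr5-CreER libraries. Of 7 distal markers 5 overlapped between groups. The distal sum, 397 to 580.1 against 214 to 238 CPM, was mostly Guca2a in Hopx-CreER libraries. Hepatocyte markers (8 in the table) summed to 22.3 to 57.9 CPM over all libraries, mostly Ttr and Cyp2e1, with Alb, the albumin gene, at 0.0688 to 6.09 CPM. None of these was tested as a source of the members' RNA.

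**Figure D3:**
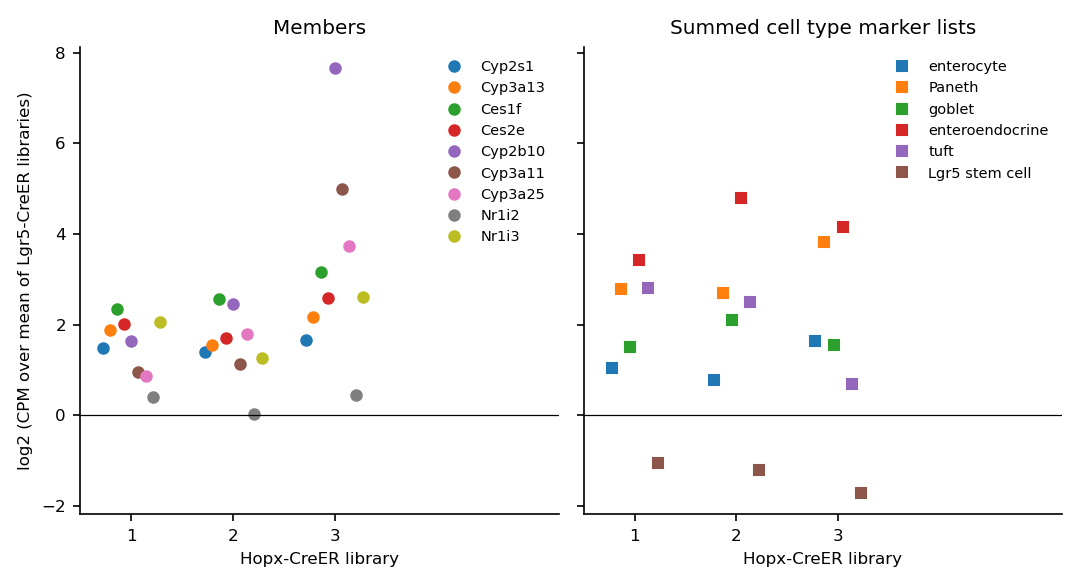
Log2 of CPM over the mean of the Lgr5-CreER libraries (vertical axis) in each Hopx-CreER library (horizontal axis; points are offset sideways for legibility) for the 9 members (left) and for 6 summed marker lists (right). Cyp2b10, Cyp3a11 and Cyp3a25 climb away from the other members in library 3, where the enterocyte and Paneth sums are also highest and the tuft sum is lowest.

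GC content was set beside the library 3 values. Transcripts of Cyp3a11, Cyp3a25 and Cyp3a13 have a GC content of 40.5%, 40.4% and 42.4%. With tested genes split into 10 equal bins of GC content, those in the same bins were lower in Hopx-CreER library 3 than in libraries 1 and 2, with median log2 ratios of -0.61, -0.61 and -0.48, whereas these members were higher by 3.50, 2.18 and 0.44. Cyp2b10, at 50.8% GC, was higher by 5.18 where the median of its bin was 0.025. With offsets for GC content, Cyp2s1, the most GC-rich member at 57.0%, had a log2 ratio between groups of 1.25 in place of 1.51. The part of base composition in the library 3 values was not tested.

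Nr1i2, the PXR gene, was close to level between groups. It stood at 31.7, 24.4 and 32.5 CPM in Hopx-CreER libraries and 26.0, 20.7 and 24.7 CPM in Lgr5-CreER libraries. Means of 29.5 ± 4.44 and 23.8 ± 2.76 CPM (SD, n = 3) gave a ratio of 1.24, and Hopx-CreER library 2 lay inside the Lgr5-CreER range. It was the only member whose groups overlapped, and its level in library 3 was 1.02 times that in library 1.

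Nr1i3, the CAR gene, was scarce and higher in Hopx-CreER cells. It had 53, 27 and 63 counts in Hopx-CreER libraries against 14, 4 and 23 in Lgr5-CreER libraries, or 3.99, 2.28 and 5.84 CPM against 0.937, 0.345 and 1.58 CPM. The means were 4.04 ± 1.78 and 0.955 ± 0.619 CPM (SD, n = 3), a ratio of 4.23, and 3.29 without Hopx-CreER library 3. Groups did not overlap, but the lowest Lgr5-CreER value rests on 4 counts. Nr1i3 also shares sequence with Tomm40l, which encodes a mitochondrial import pore protein and overlaps it on the opposite strand. Of the 31-base words in the Nr1i3 coding transcripts, 53.9% to 64.1% recur in transcripts of other genes, and for the longest Tomm40l accounts for all of them. The library kit does not mark strand, so reads of the shared stretch cannot be assigned. Tomm40l stood at 17.6, 16.3 and 17.3 CPM in Hopx-CreER libraries and 19.1, 12.4 and 16.9 CPM in Lgr5-CreER libraries (log2 fold change 0.07, edgeR adjusted p 0.851), and its groups overlapped.

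Levels of different genes were compared per kilobase of the longest coding transcript. In Hopx-CreER cells the order of mean CPM per kilobase was Ces2e (226), Ces1f (67.9), Cyp2s1 (40.4), Cyp3a13 (24.3), Cyp2b10 (14.1), Nr1i2 (11.6), Cyp3a25 (3.73), Cyp3a11 (3.16) and Nr1i3 (1.36). Ranges of the libraries did not overlap from Ces2e to Cyp3a13, and Cyp2b10 could not be placed, since its libraries ran from 0.629 to 40.7. The ranges of Cyp3a25, Cyp3a11 and Nr1i3 overlapped, so their order was not resolved. The SDs were 71.7, 20.9, 3.7 and 5.13 for the first 4. In Lgr5-CreER cells the order was Ces2e (51.0), Cyp2s1 (14.1), Ces1f (10.2), Nr1i2 (9.33), Cyp3a13 (6.53), Cyp3a25 (0.601), Nr1i3 (0.321), Cyp3a11 (0.264) and Cyp2b10 (0.201). There the ranges of Cyp2s1 and Ces1f overlapped, as did those of Ces1f and Nr1i2, and neighbours among the last 4 overlapped. Cyp2b10 ran from 0 to 0.359 in Lgr5-CreER libraries, within reach of Cyp3a11 and Nr1i3, so no member could be placed last. For Nr1i3 the longest coding transcript has 2980 bases and the others 1305 to 1414, so its level per kilobase may be understated.

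Some members lie near each other in the genome. In GRCm38, Cyp2s1 lies on chromosome 7 at 25802475 to 25816913 (minus strand) and Cyp2b10 at 25897620 to 25926624 (plus strand), 80706 bases apart; among Hopx-CreER libraries the first varied 1.19-fold and the second 64.6-fold. On chromosome 5, Cyp3a11 (145854426 to 145879964) and Cyp3a25 (145977194 to 146009618), both on the minus strand and 97229 bases apart, were high in the same library. Cyp3a13 (137892932 to 137921619, minus strand), 7932806 bases away from Cyp3a11, followed the steadier pattern. Ces1f (93256236 to 93279747, minus strand) and Ces2e (104926260 to 104934672, plus strand) are on chromosome 8, Nr1i2 (38248323 to 38294824, minus strand) on chromosome 16 and Nr1i3 (171213970 to 171220701, plus strand) on chromosome 1. All are protein coding.

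Paralogs limit how reads of some members can be assigned. Of the 31-base words in the longest coding transcript, 47.3% for Cyp3a25, 33.8% for Cyp3a11 and 21.6% for Cyp2b10 recur in other genes, against 8.77% for Ces2e, 7.35% for Cyp2s1, 5.54% for Ces1f, 0.308% for Cyp3a13 and 0% for Nr1i2. The closest relative of Cyp3a25 by this measure was Cyp3a59, with 42.6% of its words. Cyp3a59 had 5, 7 and 0 counts in Hopx-CreER libraries and 6, 9 and 6 in Lgr5-CreER libraries, and so was at 0 where Cyp3a25 was highest. Cyp2b13, which shares 14.6% of Cyp2b10 words, had 2 counts in all, both in Lgr5-CreER library 2. Cyp3a41a, the closest relative of Cyp3a11 with 17.3% of its words, was not found by symbol in the count table. Its level could therefore not be set beside that of Cyp3a11. Gm26707, an overlapping non-coding gene that holds all the words Cyp2s1 shares, had at most 9 counts in a library.

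Patterns most like those of members were sought among the 12193 tested genes whose higher group mean reached 1 CPM, by the root mean square difference of centred log2 CPM over the 6 libraries. The gene nearest to Cyp2b10 was Lct (0.73), at 8.14, 5.67 and 97.5 CPM in Hopx-CreER and 0.803, 0.173 and 1.38 CPM in Lgr5-CreER libraries, followed by Slc5a4b (1.01), of the sodium-glucose transporter family. Nearest to Cyp3a11 were Slc47a1 (0.57), a transporter that exports organic cations, and Acaa1b (0.63), a peroxisomal thiolase. Nearest to Cyp3a25 were Apoc3 (0.23), an apolipoprotein, and Vwa1 (0.30). For the steadier members the distances were smaller: Npc1l1, the intestinal cholesterol transporter, for Ces2e (0.08), B3gnt7 for Cyp3a13 (0.10), Anxa2 for Cyp2s1 (0.12), Arg2 for Ces1f (0.17) and Aco1 for Nr1i2 (0.03). Trex2 was nearest to Nr1i3 (0.30). Among members the closest pair was Cyp2s1 and Cyp3a13 (0.29), while Cyp2b10 was no nearer than 1.43 to any other, that being Cyp3a11. Cyp3a25 lay nearer to Ces2e (0.67), Ces1f (0.67), Cyp3a13 (0.74) and Nr1i3 (0.77) than to Cyp3a11 (0.83) or Cyp2b10 (1.51). By this measure Cyp2b10, Cyp3a11 and Cyp3a25 did not form a set of their own. These are descriptions of 6 libraries that share their groups, with no test.

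Genes of the same pathway outside the 9 members were tested in the fit over all genes. Of 140 tested genes in 5 lists, 62 (44.3%) rose and 4 (2.86%) fell in Hopx-CreER cells, beside 9.45% and 3.3% of all tested genes, and 74 did not pass (edgeR adjusted p under 0.05). The median log2 fold change of the 140 was 0.61. The lists leave out the members but were drawn up with earlier results of these data known. Enterocyte and other differentiated cell markers were higher in the same libraries, as given above, and their part in these calls was not tested. Without Lgr5-CreER library 2 the rises numbered 37, in a fit that called 606 of all tested genes higher. With the like-numbered Lgr5-CreER columns summed into 1 library they numbered 40, in a fit that called 659.

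**Figure D4:**
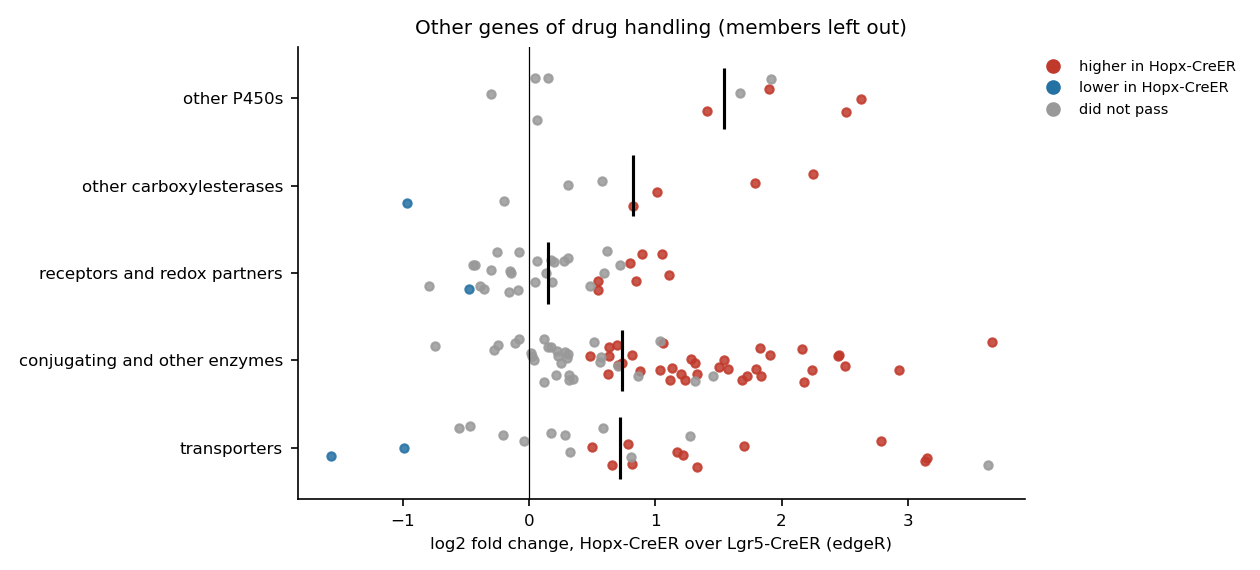
Log2 fold change (horizontal axis, positive where higher in Hopx-CreER cells) of each tested gene in 5 lists of drug-handling genes (rows; points are scattered vertically for legibility), coloured by the edgeR call at an adjusted p under 0.05; black bars are list medians and Ces3a, at 0 counts in all Lgr5-CreER libraries, is not drawn. Conjugating enzymes hold 35 of the 62 rises, and the median of the receptor list, 0.15, is nearest to 0.

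Other P450s of families Cyp1 to Cyp3 were higher or did not pass. Of 34 in the table, 10 were tested, 4 rose and 0 fell, with 0 lower also at an unadjusted p under 0.05 in edgeR, by DESeq2 and by limma-voom. Cyp2c68, of the mouse Cyp2c cluster, rose from 4.31 ± 1.14 to 24.8 ± 4.12 CPM (SD, n = 3; log2 fold change 2.51 ± 0.28, SE; edgeR adjusted p 0.00095). Cyp2d26 rose by 2.63 ± 0.35 (edgeR adjusted p 0.00189) and Cyp2c65 by 1.41 ± 0.21 (edgeR adjusted p 0.0037), and all 3 kept the call in each fit that left out 1 library. Cyp2d22, named after its values were seen, had the library 3 pattern at 0.829, 0.761 and 3.53 CPM and did not pass (edgeR adjusted p 0.255). The list's count rose to 7 by DESeq2 and 8 without a filter on low counts.

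Carboxylesterases outside the members moved both ways. Of 9 tested, 5 rose, 1 fell and 3 did not pass. Ces2c, a neighbour of Ces2e in the Ces2 family, rose by 1.79 ± 0.31 on the log2 scale (SE; 105, 89.3 and 208 CPM against 36.9, 31.4 and 48.0 CPM; edgeR adjusted p 0.00604). Ces3a had 45, 79 and 77 counts in Hopx-CreER libraries and 0 in all Lgr5-CreER libraries, at least 25.8-fold higher with each Lgr5-CreER library set at 3 counts (edgeR adjusted p 0.00122). Ces1d, a lipid-hydrolysing relative of Ces1f, fell by 0.96 ± 0.12 (51.8, 48.2 and 54.3 CPM against 96.9, 106 and 98.6 CPM; edgeR adjusted p 0.00122), the opposite direction to Ces1f. It kept its call in each fit that left out 1 library. The rises numbered 2 without Lgr5-CreER library 2, without Lgr5-CreER library 3 or with the columns sharing a number summed.

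Receptors and electron donors of the P450s made up the next list. Of 32 tested, 7 rose, 1 fell and 24 did not pass. Por, the reductase that feeds electrons to microsomal P450s, rose by 0.80 ± 0.12 (SE, log2; edgeR adjusted p 0.00407), from 126 ± 16.0 to 220.3 ± 16.9 CPM (SD, n = 3), and Cyb5r3, which reduces cytochrome b5, rose by 0.89 ± 0.12 (edgeR adjusted p 0.0023). Nr1h4, the bile acid receptor FXR, rose by 0.85 ± 0.16 (edgeR adjusted p 0.00867), a call that ended without Lgr5-CreER library 2 (adjusted p 0.0513). Rxra, the partner of PXR and CAR, did not pass, with 87.2, 77.2 and 73.6 CPM against 65.0, 61.6 and 69.7 CPM (log2 fold change 0.28 ± 0.12, SE; edgeR adjusted p 0.182). Ahr, the receptor for aryl hydrocarbons, did not pass either (-0.36 ± 0.31; edgeR adjusted p 0.499). The single fall, Vdr, the vitamin D receptor, was by 0.47 ± 0.11 (edgeR adjusted p 0.0201) and ended without Hopx-CreER library 2 or Lgr5-CreER library 2 or 3 (adjusted p 0.0686 to 0.0849). Rxra, Ahr and Vdr are named here after their values were seen. The rises numbered 2 and 4 without Lgr5-CreER libraries 2 and 3, and 3 with the columns sharing a number summed.

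Conjugating and other drug-handling enzymes held most of the rises. Of 65 tested, 35 rose, 0 fell and 30 did not pass, with 0 lower also at an unadjusted p under 0.05 in edgeR, by DESeq2 and by limma-voom. Fmo5, a flavin monooxygenase, rose by 2.45 ± 0.27 (SE, log2; edgeR adjusted p 0.00095), from 14.1 ± 1.81 to 77.5 ± 28.8 CPM (SD, n = 3). Akr1c19, an aldo-keto reductase, rose by 1.55 ± 0.17 (edgeR adjusted p 0.000926). Ugt1a7c, a glucuronosyltransferase, rose by 1.06 ± 0.12 (edgeR adjusted p 0.00095), though Ugt1a genes share their last exons and the split among them is uncertain. Gsta1, a glutathione transferase named after its values were seen, rose by 3.67 ± 0.70 (edgeR adjusted p 0.00966) with 18.5, 25.3 and 104 CPM in Hopx-CreER libraries against 3.21, 1.9 and 6.33 CPM, and so stood 4.11-fold above the others in library 3. Its call ended without Lgr5-CreER library 2 (adjusted p 0.0506).

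Transporters of drugs and bile acids rose more often than they fell. Of 24 tested, 11 rose, 2 fell and 11 did not pass. Slco2b1, an organic anion uptake carrier, rose from 63.9 ± 1.84 to 149 ± 16.4 CPM (SD, n = 3), by 1.22 ± 0.12 on the log2 scale (SE; edgeR adjusted p 0.000627). Slc51a, a subunit of the basolateral bile acid exporter, rose by 2.79 ± 0.33 (edgeR adjusted p 0.00121), and Abcc3, an efflux pump for conjugates, by 0.66 ± 0.11 (edgeR adjusted p 0.0046). Slc28a2, a nucleoside carrier, and Slco3a1, an organic anion carrier, both named after their values were seen, fell by 1.57 ± 0.25 and 0.99 ± 0.16 (edgeR adjusted p 0.00473 and 0.00546). Slc47a1 was named after its values were seen, as the gene nearest in pattern to Cyp3a11, a member chosen by its levels in these libraries. Being picked in this way favours a rise, so its p-value is no independent support. Slc47a1 rose by 3.16 ± 0.74 (edgeR adjusted p 0.0233) with 2.11, 1.86 and 9.46 CPM in Hopx-CreER libraries against 0.602, 0.605 and 0.275 CPM. That call ended without any 1 of the Lgr5-CreER libraries (adjusted p 0.0714 to 0.0971). The rises numbered 5 without Lgr5-CreER library 2 and 5 with the columns sharing a number summed.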

How the data were processed

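The authors deposited 1 table of raw counts, not normalized, with mouse Ensembl identifiers as rows. The submitters' processing notes name kallisto, edgeR and GRCh38, a human build, without saying what each was used for. How counts were made is otherwise not given in the sources used here. Per the labels' protocols, libraries were made with SMART-Seq and Nextera XT kits. Symbols came from GENCODE M21 (GRCm38; 23479 identifiers matched, 86 did not). Columns were placed in groups by the sorting gate in their names and numbered in column order. Counts were fitted in edgeR 4.0.16 (R 4.3.3; quasi-likelihood, TMM, filterByExpr, Benjamini-Hochberg over 12439 genes); the procedure was tested on simulated data. P-values measure the spread between these 6 libraries, which may in part be technical. Alternatives were other scalings, GC content offsets (spline, 5 degrees of freedom), DESeq2 1.42.0, limma-voom (limma 3.58.1), other filters, a log2 fold change of at least 1, summed columns, and leaving out each library. Members and lists were chosen with earlier results of these data known. From each list, up to 3 genes with a higher group mean of 1 CPM or more were named by smallest p, and any further gene is marked as chosen later. Marker lists share Slc15a1, Slc10a2, Slc51b and Cyp2e1 with the pathway lists.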

Additional observations from a re-analysis of the deposited data

How the results depend on the processing

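No paired analysis was possible because the columns of the count table carry no replicate numbers. The median log2 ratio of the members, 2.15, ran from 1.71 to 2.65 over the fits without 1 library, and no member's ratio changed direction under the alternatives run. With Hopx-CreER library 3 left out and the scaling factors recomputed, the log2 ratio of Cyp2b10 was 2.10 in place of 6.13 and that of Cyp3a11 1.03 in place of 3.58. For the pathway lists, genes lower in Hopx-CreER cells numbered 3 among receptors and 7 over the 5 lists with library totals alone, 3 and 7 with GC content offsets, and 2 among receptors with upper quartile factors. With the columns sharing a number summed, 2 carboxylesterases, 3 receptors, 5 transporters and 40 genes of the 5 lists were higher and 0 receptors lower. DESeq2 gave 7 other P450s higher and 2 receptors lower, and no filter gave 8 other P450s higher. Asking for a log2 fold change of at least 1 left 2 receptors and 7 transporters higher, and 0 carboxylesterases, 0 receptors, 1 transporter and 1 gene of the 5 lists lower. Over the fits without 1 library, genes higher ranged from 2 to 5 carboxylesterases, 2 to 8 receptors, 24 to 37 conjugating enzymes, 5 to 10 transporters and 37 to 63 of the 5 lists, and receptors lower from 0 to 1. The cause of these shifts was not tested. With 3 counts worth 0.201 to 0.278 CPM, the Lgr5-CreER levels of Cyp2b10, Cyp3a11 and Nr1i3 lie close to what the depth can resolve.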

Other observations

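Cyp1a1 and Cyp2c55, P450 genes that did not pass the filter on low counts, named after their values were seen, had counts mainly in Hopx-CreER library 3. Cyp1a1, a P450 known as a target of the aryl hydrocarbon receptor, had 64 counts (5.94 CPM) there and 0 in each of the other 5 libraries. Cyp2c55, another P450, had 6, 8 and 111 counts in Hopx-CreER libraries 1, 2 and 3 and 10, 6 and 7 in the Lgr5-CreER libraries, which put library 3 at 18.2 times the mean of libraries 1 and 2. Among the 29 tested genes that were at least 4-fold above both other Hopx-CreER libraries in library 3 were, beside Cyp2b10 and Cyp3a11, the enterocyte markers Lct, Apoa4, Apoa1 and Slc2a2, and Cyp2d22, Gsta1 and Slc47a1 of the pathway lists. Apoa4, an apolipoprotein of chylomicrons, stood at 26.7, 21.2 and 224 CPM in Hopx-CreER libraries and 3.82, 4.66 and 6.26 CPM in Lgr5-CreER libraries. Libraries 1 and 2 of the Hopx-CreER group had 9 and 21 genes so placed, and the 3 Lgr5-CreER libraries 22, 14 and 14.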
